A study of Mus musculus with 6 samples.

Results

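The Gimap genes (GTPases of immunity-associated proteins) stood side by side on mouse chromosome 6, and chromatin accessibility across them was compared between white blood cells of control mice and of mice in de-acclimatization from high altitude (HADA). The 8 genes of the cluster, Gimap8, Gimap9, Gimap4, Gimap6, Gimap7, Gimap1, Gimap5 and Gimap3 in the order of the GRCm39 assembly, were taken by name from 78252 annotated genes. They spanned 123.7 kb, at chr6:48624143-48747826. ATAC-seq peaks were assigned to them when the summit lay in a gene body or within 3 kb of an annotated transcription start, which gave 15 of the 62876 regions found in the 6 libraries together. All 7 genes with a start region in all libraries, Gimap4 being the exception, had taller peaks in HADA by the test used below. The same test called 17.9% of all regions with a peak in every library higher. When regions were ranked by fold enrichment over the local background instead, 0 of the 8 tested Gimap regions were called.

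ATAC-seq uses the Tn5 transposase to insert sequencing adapters into open DNA, so that tall peaks mark accessible chromatin. The HADA mice had lived in a hypobaric chamber that imitates high altitude and were then returned to normal oxygen, while the control mice stayed in normal oxygen. The mice of the study were male C57BL/6j animals, and the labels give no day of blood sampling. There were 3 control and 3 HADA libraries, each from peripheral blood leukocytes left unsorted after lysis of red cells. The labels name white blood cells and the methods leukocytes, whereas the results text of the study calls them mononuclear. No label ties a library to a single animal, so the p-values below measure the spread between libraries only.

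GIMAP proteins are GTP-binding proteins found mainly in lymphocytes, and several sit on the membranes of mitochondria, endoplasmic reticulum or lysosomes. The family is known for keeping resting T and B cells alive. Mice and rats without a working Gimap5 lose peripheral lymphocytes, loss of Gimap1 depletes mature T and B cells, and Gimap3 acts with Gimap5 in T cell survival. Gimap4 is known to speed the death of T cells and Gimap6 takes part in autophagy, while the roles of Gimap7, Gimap8 and Gimap9 are less well known.

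Each library held between 34045 and 45799 peaks, counted over the main chromosomes. The number of fragments over each summit (the summit pileup) was recovered from the peak caller's values for every peak. The genome-wide background pileup ranged from 1.69 to 2.05 fragments across control libraries, and from 1.99 to 2.34 across HADA libraries. Over the 23970 regions with a peak in every library, the median region stood 0.38 log2 units higher over this background in HADA, and heights below are therefore given relative to the median shared region of the same library. The blood cells were a mixture. B cell start regions summed to between 28.4 and 257 times background in control libraries and to between 600.2 and 682.9 in HADA, while the sums for neutrophil genes were 138.3 to 309.9 and 59.8 to 110.7. Control 3 stood apart from the others. It had the fewest peaks, the highest neutrophil sum, and peaks at the starts of 4 of 10 B cell genes, against 10 of 10 in the other 5 libraries. In such a mixture, fewer cells of a type and less accessible chromatin in each cell cannot be told apart.

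The reference sequence upstream of the outermost annotated start is printed for 7 genes, because these stretches lie under or beside the peaks compared. Gimap4 is included as the gene without a peak there, and Gimap1 is left out because an exon of the antisense gene Gimap1os overlaps. Letters are GRCm39, read 5′ to 3′ on the strand of the gene, and capitals mark matches to 10 short motifs that were searched on both strands. The stretches are chr6:48623993-48624142 for Gimap8 (plus strand), chr6:48652899-48653048 for Gimap9 (plus), chr6:48661329-48661478 for Gimap4 (plus), chr6:48685340-48685489 for Gimap6 (minus), chr6:48695405-48695540 for Gimap7 (plus), chr6:48722954-48723103 for Gimap5 (plus) and chr6:48747827-48747976 for Gimap3 (minus).
Gimap8: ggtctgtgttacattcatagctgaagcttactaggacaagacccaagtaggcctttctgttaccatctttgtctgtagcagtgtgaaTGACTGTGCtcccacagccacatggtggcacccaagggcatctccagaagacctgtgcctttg
Gimap9: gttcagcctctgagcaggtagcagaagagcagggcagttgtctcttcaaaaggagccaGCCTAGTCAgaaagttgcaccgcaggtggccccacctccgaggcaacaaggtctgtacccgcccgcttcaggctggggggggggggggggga
Gimap4: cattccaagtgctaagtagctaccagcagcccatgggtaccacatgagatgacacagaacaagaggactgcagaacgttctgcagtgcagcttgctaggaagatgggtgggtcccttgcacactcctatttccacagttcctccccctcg
Gimap6: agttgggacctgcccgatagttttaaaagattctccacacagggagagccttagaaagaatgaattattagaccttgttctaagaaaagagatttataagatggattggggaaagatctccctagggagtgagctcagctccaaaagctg
Gimap7: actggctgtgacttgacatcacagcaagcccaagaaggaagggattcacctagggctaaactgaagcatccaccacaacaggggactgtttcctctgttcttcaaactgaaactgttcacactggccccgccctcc
Gimap5: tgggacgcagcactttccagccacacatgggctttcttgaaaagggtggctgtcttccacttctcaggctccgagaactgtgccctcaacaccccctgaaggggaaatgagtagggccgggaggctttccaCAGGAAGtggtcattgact
Gimap3: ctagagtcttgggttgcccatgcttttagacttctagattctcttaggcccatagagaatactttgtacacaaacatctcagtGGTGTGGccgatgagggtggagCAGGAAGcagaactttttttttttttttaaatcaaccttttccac

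The stretches shared little. The capitals upstream of Gimap8 and Gimap9 match TGACNNNGC, a core of the site bound by NRF2, which was present in the 150 bases upstream of 6.27% of 21757 protein-coding genes. Those upstream of Gimap5 and Gimap3 match the ETS letters CAGGAAG, found upstream of 6.50% of the genes, and Gimap3 also holds the KLF letters CCACACC on the opposite strand, found upstream of 5.26%. Gimap4, Gimap6 and Gimap7 held none of the 10 motifs in these windows, that of Gimap7 being shorter, at 136 bases, because the bases next to its start belong to an exon of another gene. The remaining motifs were TGTGGTT for RUNX factors, CTTTGAT for TCF7 factors, AGATAA for GATA factors, TGTTTAC for FOXO factors, TGGGAA for IKZF factors, TGANTCA for the AP1 complex and CCACNAGG for CTCF. ETS and IKZF letters share GGAA, and the NRF2 and AP1 letters share TGA. Within 100 bp of the summits of the 15 regions, ETS letters were present at 2 regions, each of RUNX, FOXO, IKZF, GATA, KLF and AP1 at 1, and TCF7, NRF2 and CTCF at 0. Over all 62876 regions, the shares were 12.3% for ETS, 15.7% for IKZF, 8.17% for NRF2, 7.14% for RUNX, 6.996% for GATA, 5.50% for AP1, 5.06% for KLF, 3.61% for CTCF and 2.46% each for FOXO and TCF7.

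Most of the cluster's tested regions were taller in HADA. Of the 15 regions, 8 had a peak in all 6 libraries and could be tested, and 7 of these 8 were higher in HADA by limma with Benjamini-Hochberg adjustment at 0.05. Over all 23970 shared regions, 17.9% were called higher and 24.1% lower. None of the 8 was called lower, and all 8 differences were above 0. The median difference over the 8 regions was 0.83 log2 units, with a range from 0.24 to 1.17, against -0.04 over all shared regions, and 9.40% of all shared regions had a difference at or above 0.83. At 7 of the 8 regions every HADA library exceeded every control library, an order seen at 29.4% of all shared regions. Dividing by the background pileup instead of centring gave 7432 higher and 4396 lower calls over all regions, against 4291 and 5769, and left the count at 7 of 8.

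These calls depended on having the full set of HADA libraries. When HADA 1 was left out, limma called 3 of the 8 regions, when HADA 2 was left out 0, and when HADA 3 was left out 1, with 7, 6 and 7 of them at an unadjusted p under 0.05. Over all regions, higher calls fell to 1892, 801 and 1583 in the same fits. Leaving out control 1, control 2 and control 3 gave counts of 6, 7 and 6, with 4656, 3412 and 3967 higher calls over all regions. The median difference moved less, between 0.66 without control 3 and 0.97 without control 1.

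**Figure D1:**
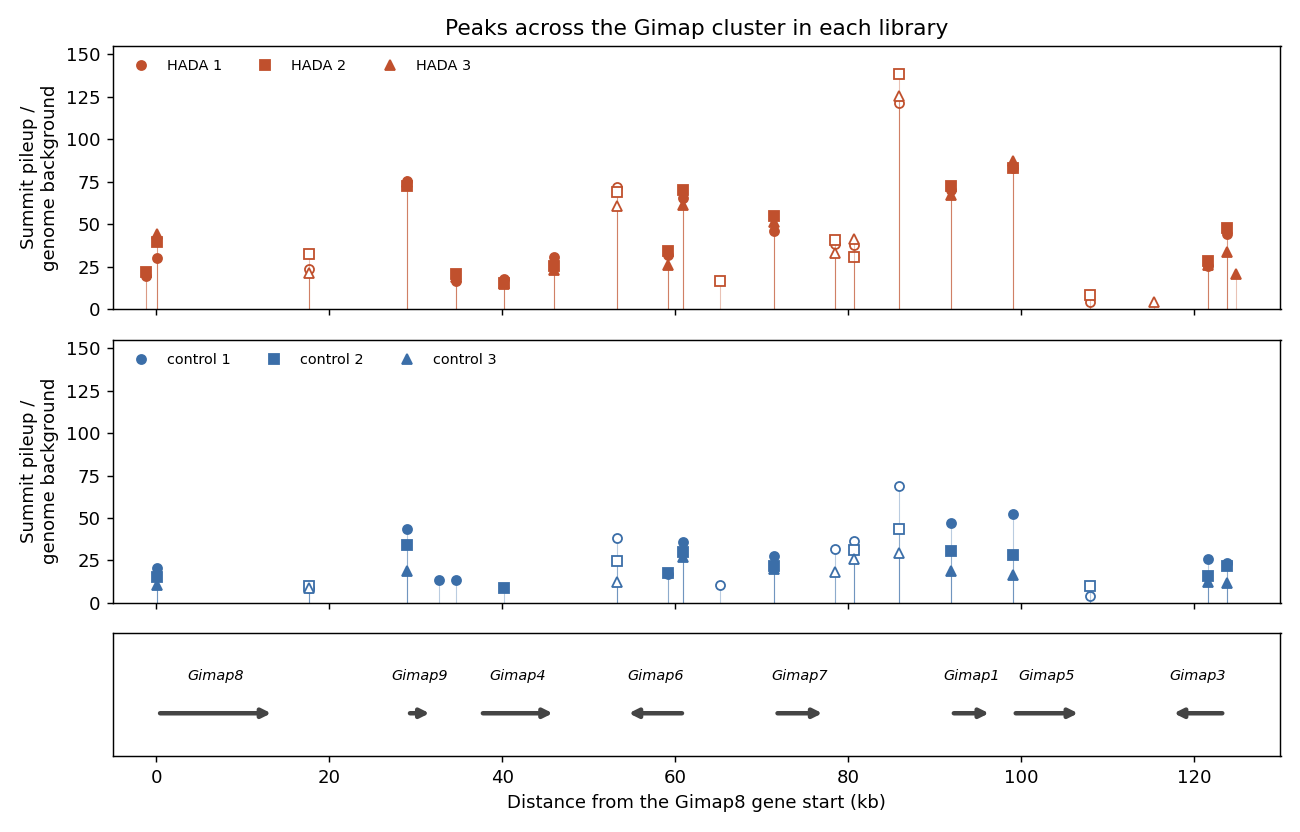
Peaks across the cluster, with HADA libraries in the upper panel and control libraries in the middle panel. Each point is a called peak of 1 library, placed by the distance of the region's tallest summit from the Gimap8 start (kb) and by its summit pileup divided by the genome-wide background; filled points belong to the 8 genes by the rule, open points lie between them, and arrows below show the direction of transcription. HADA points stand above the control points at all the starts except that of Gimap4, where neither panel has a point.

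Gimap5, whose loss costs animals their peripheral lymphocytes, had the largest difference among the 8 and, in HADA, the tallest start region. The region at chr6:48722610-48724802 had its summit 35 bp from a start, in a UTR exon. Its summit pileup was 88, 58 and 30 fragments in control 1, 2 and 3, and 194, 165 and 198 in HADA 1, 2 and 3. The groups did not overlap, and the control libraries spread far more widely than the HADA libraries. Relative to the median region, Gimap5 rose by 1.17 ± 0.31 (SE) log2 units (limma adjusted p = 0.0225), a difference larger than at 96.5% of all shared regions. Without control 3, the lowest library, it was 0.82 (limma adjusted p = 0.0248).

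Gimap1, which mature T and B cells need to persist, lies upstream of Gimap5 on the same strand. Its start region, at chr6:48715784-48716440 with the summit in a UTR exon 41 bp from a start, also lies inside Gimap1os and the read-through gene Gm28053. An annotated start of Gm28053 is 91 bp from the summit, so this peak cannot be given to a single gene. The pileup was 79, 63 and 34 fragments in the control libraries and 164, 144 and 153 in HADA. Again control 3 was lowest and no HADA library came down to the control range. The region rose by 0.85 ± 0.26 log2 units (limma adjusted p = 0.0322), and by 0.56 without control 3 (limma adjusted p = 0.0277).

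Gimap3, the partner of Gimap5 in T cell survival, closes the cluster on the opposite strand. At its outermost start (chr6:48747530-48748373, summit 181 bp upstream) the pileup was 40, 45 and 21 fragments in control and 103, 95 and 76 in HADA. The height rose by 0.81 ± 0.26 log2 units (limma adjusted p = 0.0398), the weakest call among the starts. It was 0.54 without control 3 (limma adjusted p = 0.0534), and 0.88 without control 1 (limma adjusted p = 0.0555). A further shared region lay inside the gene, at chr6:48745375-48746201 in a UTR exon, with 44, 33 and 23 fragments in control and 60, 57 and 59 in HADA. After centring, its groups overlapped, and the difference of 0.24 ± 0.21 log2 units did not pass the test (limma adjusted p = 0.38). It was the only shared region of the 8 genes that was not called.

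Gimap6, a gene tied to autophagy, had the smallest standard error of the 8. Its start region, at chr6:48684618-48685612 with the summit in a coding exon 100 bp from a start, held 61, 61 and 49 fragments in control and 153, 140 and 140 in HADA. The rise was 0.72 ± 0.15 log2 units (limma adjusted p = 0.0128), and it ranged only from 0.68 to 0.76 when each library was left out in turn.

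Gimap7 had a region at chr6:48694941-48696112 whose summit lay 17 bp upstream of its start and 3 bp from the start of the read-through gene Gm28053, so a peak there cannot be given to either gene alone. The pileup was 47, 44 and 36 fragments in control and 107, 109 and 117 in HADA. Control values lay close together here, and control 3 was less far below the others than at Gimap5 or Gimap1. The region rose by 0.77 ± 0.17 log2 units (limma adjusted p = 0.0132).

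Gimap8, a long protein with several GTPase domains, opens the cluster. Its start region (chr6:48623772-48624742, summit in a UTR exon 7 bp from a start) held 35, 31 and 19 fragments in control and 71, 79 and 100 in HADA. Its mean height over background was the lowest of the start regions in both groups, although in HADA 3 Gimap3 was lower. It rose by 0.96 ± 0.25 log2 units (limma adjusted p = 0.0201). Gimap9, its neighbour, had 73, 70 and 34 fragments in control and 177, 144 and 170 in HADA at chr6:48652699-48653779, with the summit in a UTR exon 49 bp from a start. The difference was 0.92 ± 0.26 log2 units (limma adjusted p = 0.0250), and 0.63 without control 3 (limma adjusted p = 0.0180).

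**Figure D2:**
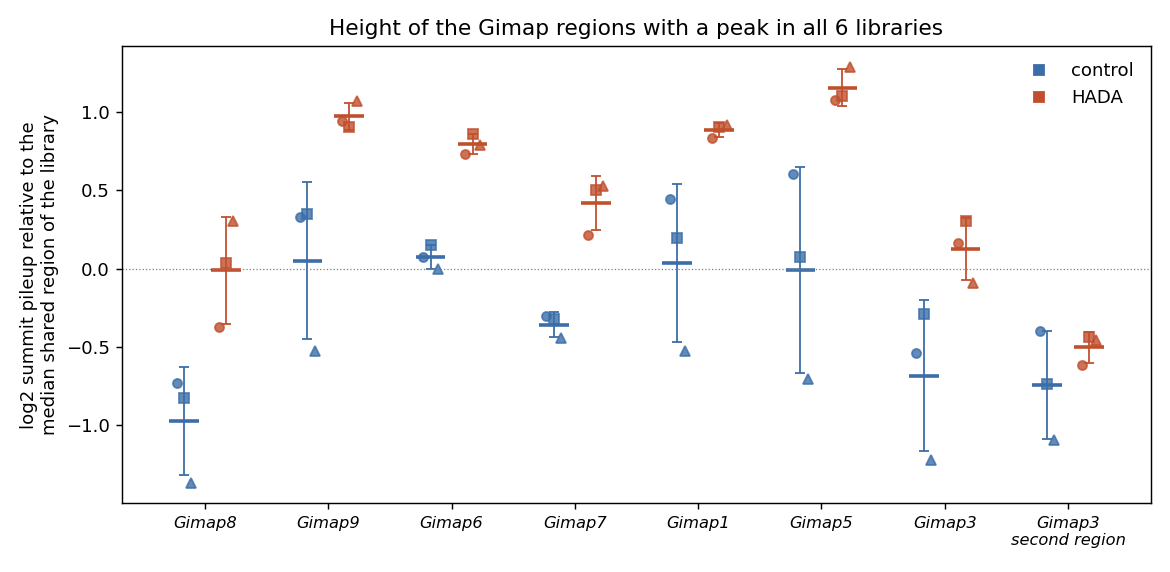
Height of the 8 tested regions in each library, as log2 summit pileup minus that of the median shared region of the same library. Circles, squares and triangles are libraries 1, 2 and 3 of a group, the horizontal bars are the group means and the error bars are 1 SD (n = 3); HADA lies above control at 7 regions, and the groups overlap at the second Gimap3 region.

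Height over the genome-wide background gave an order of the genes within each group. In HADA, start regions ranked from Gimap5 at 84.3 ± 2.42 times background (mean ± SD, n = 3) over Gimap9 at 74.2 ± 1.72, Gimap1 at 69.9 ± 2.52, Gimap6 at 65.7 ± 4.38, Gimap7 at 50.6 ± 4.56 and Gimap3 at 41.7 ± 7.41 to Gimap8 at 38.0 ± 6.97. Only Gimap5 and Gimap9, and Gimap6 and Gimap7, were neighbours whose ranges did not overlap. In control, Gimap5 at 32.3 ± 18.2, Gimap1 at 32.02 ± 14.2, Gimap9 at 31.97 ± 12.5 and Gimap6 at 30.9 ± 4.78 had higher means than Gimap7 at 22.98 ± 4.30, Gimap3 at 19.0 ± 6.60 and Gimap8 at 15.4 ± 5.18, and the ranges of all neighbours overlapped. On the median-centred log2 scale the control mean of Gimap5, at -0.01, lay below those of Gimap6 at 0.07, Gimap9 at 0.05 and Gimap1 at 0.04, so the control order of these 4 depended on the scale. The ratio of the HADA to the control mean of height over background, which includes the shift of the median region, ran from 2.13 at Gimap6 to 2.61 at Gimap5.

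Gimap4, known to hasten T cell death, was the exception. No library had a peak at its outermost start, although all 51 of the 50-base windows tested within 250 bp of that start occur only a single time in the genome. The nearest region to any of its starts was intronic, at chr6:48663958-48664490 and 1282 bp from an internal start, with 18 fragments in control 2, no called peak in control 1 and 3, and 41, 31 and 33 fragments in HADA. A region upstream, at chr6:48658588-48659301, had 23 fragments in control 1, no peak in the other control libraries, and 39, 41 and 43 in HADA. A further region, intronic at chr6:48669777-48670754, was called in all HADA libraries with 72, 51 and 52 fragments and in no control library. For these absent peaks, the height that the peak caller would have accepted was estimated from the nearby background. At the region seen only in HADA it was 22, 14 and 12 fragments in control 1, 2 and 3, well below the HADA pileups. None of the Gimap4 regions could enter the test, which needed a peak in every library.

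The remaining 4 regions were called in some libraries only. An internal start of Gimap6 (chr6:48682730-48683454) had 29 and 36 fragments in control 1 and 2, no peak in control 3, and 75, 68 and 59 in HADA. The region upstream of Gimap8 at chr6:48622546-48623104 was called only in HADA 1 and HADA 2, with 46 and 43 fragments, and the one upstream of Gimap3 at chr6:48748760-48749149 only in HADA 3, with 47. Behind Gimap9, at chr6:48656781-48657104, the only peak was in control 1, with 23 fragments.

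Counted by library, the cluster had more peaks and more covered bases in HADA. The control libraries had 11, 10 and 8 peaks at the 8 genes and each HADA library had 13, so that the control mean was 9.67 ± 1.53 (SD, n = 3). Per 10000 peaks of the library, the control numbers were 2.65, 2.43 and 2.35 and those of HADA 2.93, 2.95 and 2.84, and the groups did not overlap on this scale either, although they did when only peaks of −log10 q of at least 10 were counted. The peaks covered 7940, 6953 and 5675 bases in control and 11011, 10532 and 11016 in HADA. Coverage by all peaks of a library was not computed, so greater coverage cannot be called particular to the cluster. Within 1 kb of the starts, however, the control libraries had 8, 8 and 7 peaks and the HADA libraries 8 each, and per 10000 peaks control was the higher group, at 1.98 ± 0.07 against 1.79 ± 0.04. A single region of the 15 was found in all HADA libraries and no control library, the Gimap4 region above, and 0 were found in all control and no HADA library, with shares over all 62876 regions of 7.01% and 1.88%.

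Between the genes lay 8 further regions, of which 4 were shared by all libraries and 3 of these rose. The tallest region of the whole span was among them, at chr6:48709499-48710416 between Gimap7 and Gimap1, inside Gm28053 and Gimap1os. It held 116, 89 and 54 fragments in control and 284, 276 and 286 in HADA, and rose by 1.15 ± 0.24 log2 units (limma adjusted p = 0.0120). The reference sequence at its summit, chr6:48709975-48710075 on the plus strand, is printed because no start region was as tall, and none of the 10 motifs was found in it, although the wider window of 100 bp to each side of the summit held the FOXO letters.
Summit between Gimap7 and Gimap1: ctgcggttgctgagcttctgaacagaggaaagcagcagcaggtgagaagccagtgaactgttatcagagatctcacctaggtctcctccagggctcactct
The region between Gimap4 and Gimap6, at chr6:48675856-48677739 and 26 bp from a start of the gene Gm66393, had 64, 51 and 23 fragments in control and 168, 137 and 138 in HADA, a rise of 1.18 ± 0.31 log2 units (limma adjusted p = 0.0208). A low region between Gimap8 and Gimap9, at chr6:48641386-48642358, went from 15, 21 and 16 fragments to 55, 65 and 49, a rise of 1.08 ± 0.22 (limma adjusted p = 0.0118). In the order given, the highest limma adjusted p with a library left out was 0.0514, 0.0678 and 0.0515, so each call could be lost. When ranked by fold enrichment over the local background, these 3 regions were not called (limma adjusted p = 0.064, 0.178 and 0.143). The rise was not found at every shared region of the span. At chr6:48704553-48705190, also between Gimap7 and Gimap1, the pileup was 62, 64 and 47 fragments in control and 88, 61 and 94 in HADA, and the difference of -0.15 ± 0.20 log2 units did not pass the test (limma adjusted p = 0.569).

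The local background under the peaks was higher in HADA. It reflects signal near the summit, which neighbouring peaks can raise, so it is not a measure separate from peak height. The peak caller's local background at the 8 tested regions had a median of 4.57, 3.53 and 2.44 times the genome-wide background in control 1, 2 and 3, and of 6.47, 7.21 and 6.46 times in HADA. Over all shared regions the control medians were 3.23, 2.55 and 2.41 and the HADA medians 3.65, 3.67 and 3.48, so that the cluster stood further above the ordinary region in HADA than in control. When regions were instead ranked by the authors' fold enrichment, which divides the summit by this local background, limma called 0 of the 8 regions, with 3 at an unadjusted p under 0.05, of which Gimap8 and Gimap5 were higher and the second Gimap3 region, at -0.40, lower in HADA, while 6.57% of all shared regions were called higher. By that measure 6 of the 8 shifts were above 0, with a median of 0.29 in units of normal scores against 0.06 over all regions. The shift at Gimap6 was -0.012 (limma adjusted p = 0.972). The count of 7 thus holds for the height of the summits and not for their height over the immediate surroundings.

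**Figure D3:**
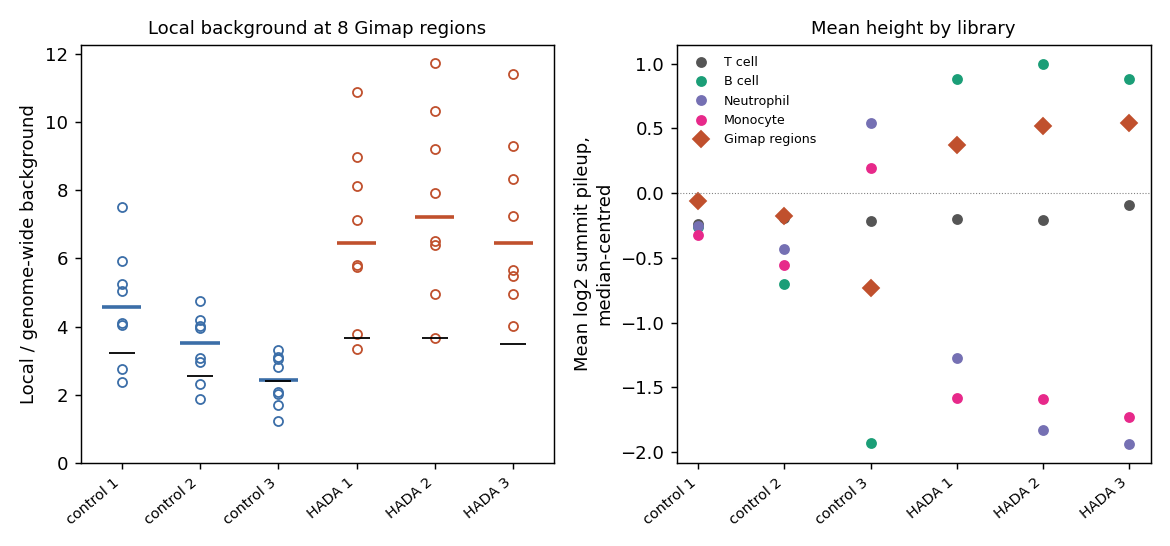
Left, local background divided by genome-wide background at the 8 tested regions in each library, with open points for regions, coloured bars for their median and black bars for the median over all shared regions. Right, mean log2 summit pileup relative to the median shared region for the 8 Gimap regions (diamonds) and for the shared start regions of marker lists (circles). Control 3 is lowest for the Gimap regions and the B cell list and highest for the neutrophil and monocyte lists.

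B cell markers moved in the direction of the cluster, and neutrophil markers in the opposite direction. The mean height of the 8 regions relative to the median region was -0.06, -0.18 and -0.74 log2 units in control 1, 2 and 3, and 0.37, 0.52 and 0.54 in HADA. For B cell genes the same mean was -0.26, -0.70 and -1.93 in control and 0.88, 1.00 and 0.88 in HADA, with control 3 again lowest. All 4 of the 10 B cell genes with shared start regions rose, Ms4a1 and Pax5 among them, and their median difference was 1.99 log2 units. Among 7 tested of 10 T cell genes, Cd3e, part of the T cell receptor complex, rose by 0.55 (limma adjusted p = 0.0335), Cd6 fell by 1.43 (limma adjusted p = 0.0199) and 5 did not pass, with a median of 0.36. Relative to the median region, control 1, 2 and 3 had mean T cell heights of -0.24, -0.19 and -0.22, and HADA 1, 2 and 3 had -0.20, -0.21 and -0.09. All 6 tested neutrophil genes and all 4 tested monocyte genes fell, with medians of -1.65 and -1.40. Not all untested monocyte genes went that way: Ly6c2 had 40 and 30 fragments in control 1 and 2, no peak in control 3, and 98, 81 and 76 in HADA, and Ms4a6c and Ccr2 likewise had more peaks in HADA, while F13a1 had more in control. Of the NK cell list, only Prf1 could be tested and was not called, at 0.32, and both tested genes of the erythroid and platelet list rose, with a median of 0.78.

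Peaks were absent from all libraries at Klrk1 of the NK cell list, at Camp and Ngp of the neutrophil list, and at Alas2 and Gp9 of the erythroid and platelet list. Every T cell, B cell and monocyte gene had a peak in at least 1 library. The sums that follow include the shift of the median region and cover the peaks called in each library, which differ in number. For T cell genes, the summed height over background ranged from 252.7 to 336.7 among control libraries and from 350.0 to 397.4 among HADA libraries. The control and HADA ranges were 122.7 to 172.4 and 108.2 to 128.2 for monocyte genes, 11.5 to 39.7 and 41.9 to 55.0 for NK cell genes, and 65.2 to 84.7 and 147.7 to 172.6 for erythroid and platelet genes. The part of cell composition in the differences at the Gimap genes was not tested.

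**Figure D4:**
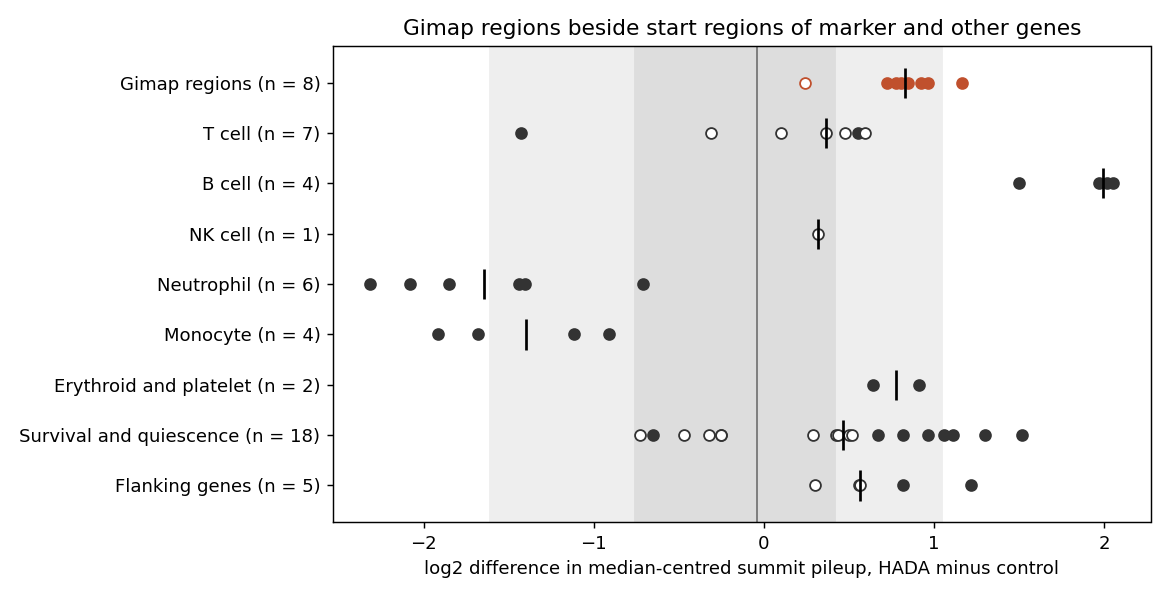
Difference in log2 summit pileup, HADA minus control, relative to the median shared region, for the 8 Gimap regions and for start regions of marker, survival and flanking genes. Each point is a region, filled where limma called it, vertical ticks are list medians, and shading shows the middle 50% and 90% of all shared regions with a line at their median; the Gimap regions lie between neutrophil and monocyte genes on the lower side and B cell genes on the higher side.

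Genes of lymphocyte survival and quiescence were examined beside the cluster. Of 19 such genes, 18 had a shared start region, 7 of these rose, 1 fell and 10 did not pass, and their median difference was 0.47 log2 units. The 7 were Bach2 at 1.52, Lef1 at 1.299, Ccr7 at 1.11, S1pr1 at 1.06, Foxo1 at 0.97, Bcl2 at 0.82 and Ikzf1 at 0.67. Ccr7 and S1pr1 direct the traffic of naive lymphocytes through lymph nodes, Bcl2 blocks cell death, and Foxo1, Bach2, Lef1 and Ikzf1 are transcription factors of lymphocyte development and rest. Foxp1, also a factor of lymphocyte quiescence, fell by 0.65 (limma adjusted p = 0.0396). Il7r, the receptor of the survival cytokine IL-7, was not called, with a pileup of 20, 19 and 20 fragments in control and 40, 46 and 43 in HADA and a difference of 0.50 ± 0.19 (limma adjusted p = 0.0609). The anti-death genes Mcl1 and Bcl2l1 were at -0.73 and -0.25 and not called.

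Next to the cluster, within 300 kb of its ends, 19 protein-coding genes were annotated besides the 8. Of 5 start regions that were shared and lay outside the Gimap regions, 3 rose and none fell, with a median of 0.56 log2 units. The 3 were those of Krba1 at 1.22 ± 0.24 (limma adjusted p = 0.0110), Zfp467 at 0.82 ± 0.26 (limma adjusted p = 0.0363) and Zfp775 at 0.56 ± 0.16 (limma adjusted p = 0.0286). All 5 regions tested lay on the Gimap8 side, so the sides of the cluster could not be compared. Lrrc61, at 0.30, and the region shared by Repin1 and Gm44965, at 0.56, did not pass. Gm28053 was counted with Gimap7, whose start region it shares, and 7 of the 19 genes had no peak near their starts in any library.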

How the data were processed

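Peak lists from 6 ATAC-seq libraries of mouse white blood cells were analysed, 3 control and 3 HADA, grouped by the labels. Per the labels and the submitters' processing notes, the authors checked reads with FastQC, trimmed them with Trimmomatic, aligned them to GRCm39 with Bowtie2, used Picard for duplicates and MACS2 for peaks. Versions and MACS2 options are not given in the sources used here. Peaks were called on single libraries. Each deposited peak has a fold (the ratio of summit pileup to local background, with 1 added to both), a score, and p- and q-values as −log10, all made by the authors' peak caller. No read counts were used.

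The whole-number pileup and the local background were solved from the deposited fold and −log10 p-value, which succeeded for 100% of peaks within a relative tolerance of 0.0001. Pileup rather than fold was the main measure because the fold is relative to nearby signal and this cluster is a run of open regions. Peaks sharing 1 bp were merged, log2 pileups were centred on the median shared region of each library, and regions with a peak in all 6 libraries were compared by limma 3.58.1 (R 4.3.3) with Benjamini-Hochberg adjustment over all 23970 regions at 0.05. All 8 genes were named, with other regions where called, seen in 1 group only or tallest. On data simulated for the HADA against control comparison over 23970 regions, limma recovered 22 of 67 regions changed by 1 log2 unit, 53 of 67 changed by 2 and 64 of 66 changed by 4. In that simulation most changes of 1 log2 unit were missed. All other simulated regions were unchanged, whereas 4291 regions were called higher and 5769 lower in the data. Because the adjustment depends on how many regions change, the recovered counts do not measure the power of the real comparison. Alternatives were the fold rank, division by background, a replicate block, other peak thresholds and windows, and leaving out each library. Fragments of amplified libraries are not independent molecules, and total read depth is unknown. Some genes that the naming rule picked are not reported here. The genes, the lists and the main measure were chosen with earlier results of these data known, and an earlier description of them had used the fold rank, by which 0 of the 8 regions are called. GENCODE gene models and sequences were those of GRCm39, and sequences were copied from that assembly with Python 3.11.15.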

Additional observations from a re-analysis of the deposited data

How the results depend on the processing

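The count of 7 Gimap regions higher in HADA held among 8 tested when heights were divided by background, with peaks of −log10 q of at least 5 and with summits joined within 200 bp, among 9 tested with regions in at least 4 libraries and at least 2 of each group, and among 7 tested within 1 kb of a start, and no alternative called a region lower. Higher calls over all regions numbered 4291 in the main setting and 7432 after division by background. They numbered 3963 at −log10 q of at least 5, 3605 with joined summits and 5815 with regions in at least 4 libraries. The median difference was 1.21 log2 units after division by background, where the median over all regions was 0.34. By fold rank the count was 0 and the median 0.29, with shifts of 0.52 at Gimap8, 0.22 at Gimap9, 0.25 at Gimap7, 0.43 at Gimap1, 0.50 at Gimap5, 0.33 at Gimap3, -0.40 at the second Gimap3 region and -0.012 at Gimap6, both of which changed sign. Leaving out each library gave counts of 0 to 7, median differences of 0.66 to 0.97, and differences of 0.77 to 1.14 at Gimap8, 0.63 to 1.07 at Gimap9, 0.68 to 0.76 at Gimap6, 0.72 to 0.87 at Gimap7, 0.56 to 1.05 at Gimap1, 0.82 to 1.47 at Gimap5 and 0.54 to 1.00 at Gimap3. Regions found in HADA only numbered 1 to 2 in those fits, 3 at −log10 q of at least 5, and 0 within 1 kb of a start, where HADA had 0.333 more peaks and 2033 more covered bases per library. Over all regions, HADA-only regions numbered 4405 of 62876 in the main setting and 4506 of 52472 at −log10 q of at least 5. With a library left out they ran from 4628 of 61363 without control 3 to 7157 of 61655 without control 1. The causes of these changes were not tested, apart from the fewer libraries and the narrower window themselves.

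With the replicate block, 7 of 8 regions were called, with a median of 0.83, and the block changed no call at the start regions, while higher calls over all regions went from 4291 to 2991. Libraries with the same number did not deviate together, with correlations over shared regions of -0.08, 0.08 and -0.38, and no library correlated best with its own number. The correlation was 0.49 for control 3 with HADA 1, 0.46 for control 2 with HADA 3 and -0.47 for control 2 with HADA 1. Deviations from the mean of 3 libraries constrain one another, so this check cannot show whether libraries were paired. Presence of a peak depends on depth, which the lists do not give, and a region absent from a list can still be open.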

Other observations

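Among 11568 other protein-coding genes with a shared region near a start, those whose heights over the 6 libraries came closest to the mean profile of the 7 Gimap start regions included Ccnb1, Myc, Mgst3 and Cd72. Likeness was the root mean square difference of median-centred log2 heights, each profile minus its own mean. It was 0.035 for Ccnb1, 0.040 for Myc, 0.045 for Mgst3 and 0.046 for Cd72, with a median of 0.488 over all genes compared. The Gimap start regions themselves lay between 0.094 (Gimap1) and 0.240 (Gimap5) from their mean. Differences between HADA and control at these genes ran from 0.83 log2 units at Myc to 0.96 at Mgst3. Ccnb1 encodes a cyclin of mitosis, Myc a growth factor-driven transcription factor and Cd72 a B cell surface receptor. Profiles over 6 libraries hold few independent values, and the list is a description.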
